A study of Homo sapiens with 3 samples.

Results

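Ephrins, semaphorins and their receptors carry signals between cells that touch or lie close to each other, and the 49 genes described here encode 14 Eph receptors, 7 ephrins, 19 semaphorins, 7 plexins and 2 neuropilins. They were taken by name from the 19974 protein-coding genes of the gene table, and every peak that overlapped a gene span or the 1 kb either side of it by at least 1 bp was counted for that gene. The peaks came from HCC1599, an established line of triple-negative breast cancer cells, which the series title places among MARCO-TST positive cells. Chromatin was immunoprecipitated with an Active Motif antibody to H3K27ac or a Cell Signaling Technology antibody to H3K4me3 and sequenced, with 1 library per mark, and a library without antibody served as input. The cells carried no stated treatment or genetic change, and no other line or normal tissue is analysed here. With 1 library per mark there was no replicate, so no test was made and every comparison between genes is a description of these 2 libraries.

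Eph receptors are receptor tyrosine kinases that bind ephrins on neighbouring cells. Ephrin-A ligands are held in the membrane by a lipid anchor and ephrin-B ligands span it, and contact can signal into both cells. Semaphorins are ligands for plexins: those of class 3 are secreted and mostly use neuropilins as co-receptors, while the classes numbered 4 to 7 in vertebrates are bound to the membrane. These molecules steer axons and blood vessels in development and shape cell contacts and movement in epithelia, the mammary gland included. H3K27ac, an acetylated histone mark, is found at active promoters and enhancers, and H3K4me3, a trimethylated histone mark, is found at promoters.

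On chromosomes 1 to 22 and X there were 72894 peaks of H3K27ac and 32043 of H3K4me3. Each peak has a score from the authors that has no stated unit, starts at 30 and piles up at 3100, which 3.71% of H3K27ac peaks and 33.9% of H3K4me3 peaks reached or passed. The score was used only to rank or filter peaks within 1 list. Read depth is unknown here, and where no peak is reported, none was called, which does not show that the mark was absent. All 6 epithelial markers looked at (EPCAM, CDH1, KRT5, KRT8, KRT18 and KRT7) had both marks over the gene or its 1 kb flanks. Within 1 kb of a start, or of a gene end where no start is listed, 5 had both and KRT8 had H3K27ac alone. Of the 4 markers each of lymphocytes, endothelium, fibroblasts and neurons, 0 had both marks there, although PTPRC, RBFOX3 and SYN1 had both over the gene and its flanks. H3K27ac without H3K4me3 was called over VWF, with a score of up to 1591, and over PECAM1, TEK, COL1A2 and PDGFRB. SYN1 and SNAP25 had H3K4me3 alone at the start or gene end.

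The sequence just before the start of a gene is where these marks are usually read, and 9 starts are shown because they carry the contrast described below. All positions are in GRCh38.p14, each run is the 250 bases before the listed start in RefSeq's table, read 5′ to 3′ on the strand of the gene, and capitals mark each CpG. The first set holds a start from an Eph receptor, an ephrin, a semaphorin and a neuropilin at which both marks scored 3100. They lie at chr3:184561535-184561784 on the plus strand for EPHB3, chr1:155127626-155127875 on the plus strand for EFNA1, chr15:90184670-90184919 on the plus strand for SEMA4B and chr2:205682251-205682500 on the plus strand for NRP2.
EPHB3: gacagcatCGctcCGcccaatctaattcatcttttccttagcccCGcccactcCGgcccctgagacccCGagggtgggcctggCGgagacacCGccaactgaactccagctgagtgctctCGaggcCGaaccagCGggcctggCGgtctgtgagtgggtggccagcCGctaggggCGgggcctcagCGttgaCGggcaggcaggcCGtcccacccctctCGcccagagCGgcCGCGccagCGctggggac
EFNA1: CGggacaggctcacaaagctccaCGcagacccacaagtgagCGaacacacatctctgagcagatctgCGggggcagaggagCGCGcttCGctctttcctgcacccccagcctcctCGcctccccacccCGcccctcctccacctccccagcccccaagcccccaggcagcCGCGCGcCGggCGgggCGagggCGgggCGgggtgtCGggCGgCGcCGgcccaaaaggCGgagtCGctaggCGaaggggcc
SEMA4B: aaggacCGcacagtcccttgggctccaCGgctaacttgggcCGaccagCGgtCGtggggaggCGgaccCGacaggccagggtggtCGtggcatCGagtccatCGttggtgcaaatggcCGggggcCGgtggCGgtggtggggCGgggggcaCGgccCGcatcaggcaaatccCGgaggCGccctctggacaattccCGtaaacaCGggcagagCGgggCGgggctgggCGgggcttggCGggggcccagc
NRP2: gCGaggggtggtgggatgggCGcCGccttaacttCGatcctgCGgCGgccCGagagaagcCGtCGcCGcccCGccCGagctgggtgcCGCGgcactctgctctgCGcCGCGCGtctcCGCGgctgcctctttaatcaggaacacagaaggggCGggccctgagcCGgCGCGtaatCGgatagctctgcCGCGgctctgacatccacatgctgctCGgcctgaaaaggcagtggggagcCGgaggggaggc

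The second set holds a start from an Eph receptor, an ephrin, a semaphorin and a plexin at which H3K4me3 also scored 3100 and no H3K27ac peak was called. They lie at chr6:93419560-93419809 on the minus strand for EPHA7, chr13:106535663-106535912 on the minus strand for EFNB2, chr2:74653997-74654246 on the plus strand for SEMA4F and chr1:208244385-208244634 on the minus strand for PLXNA2. The last run, at chr5:9546076-9546325 on the minus strand, is that of SEMA5A, a start rich in CpG with no peak of either mark called within 1 kb. No span of another protein-coding gene overlapped any of the 9 runs.
EPHA7: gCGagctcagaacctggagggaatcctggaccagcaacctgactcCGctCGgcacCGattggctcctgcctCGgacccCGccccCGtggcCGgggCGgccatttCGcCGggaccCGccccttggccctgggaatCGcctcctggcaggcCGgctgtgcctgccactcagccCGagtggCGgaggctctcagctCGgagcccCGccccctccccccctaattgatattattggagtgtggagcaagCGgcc
EFNB2: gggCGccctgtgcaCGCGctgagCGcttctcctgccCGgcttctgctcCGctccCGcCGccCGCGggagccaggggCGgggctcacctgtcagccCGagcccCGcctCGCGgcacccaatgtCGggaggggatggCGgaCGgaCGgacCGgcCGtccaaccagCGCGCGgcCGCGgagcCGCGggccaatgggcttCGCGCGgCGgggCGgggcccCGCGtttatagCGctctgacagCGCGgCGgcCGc
SEMA4F: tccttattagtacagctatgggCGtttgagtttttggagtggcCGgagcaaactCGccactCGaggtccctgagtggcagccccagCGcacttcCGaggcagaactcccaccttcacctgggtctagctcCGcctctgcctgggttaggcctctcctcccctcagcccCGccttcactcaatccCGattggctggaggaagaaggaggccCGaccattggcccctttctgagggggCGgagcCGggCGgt
PLXNA2: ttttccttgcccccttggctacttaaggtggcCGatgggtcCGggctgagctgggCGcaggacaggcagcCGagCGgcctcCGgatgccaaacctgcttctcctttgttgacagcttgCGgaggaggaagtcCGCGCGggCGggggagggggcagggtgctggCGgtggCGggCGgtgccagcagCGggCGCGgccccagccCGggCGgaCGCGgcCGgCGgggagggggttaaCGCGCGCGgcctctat
SEMA5A: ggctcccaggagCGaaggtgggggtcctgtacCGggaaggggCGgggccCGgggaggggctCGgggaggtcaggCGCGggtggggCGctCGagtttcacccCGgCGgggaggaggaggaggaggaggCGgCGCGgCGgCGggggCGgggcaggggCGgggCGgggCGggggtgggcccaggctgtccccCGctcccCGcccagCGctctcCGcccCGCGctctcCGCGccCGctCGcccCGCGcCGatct

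The runs of the first set held 21 CpG in EPHB3, 24 in EFNA1, 24 in SEMA4B and 29 in NRP2. Those of the second set held 19 in EPHA7, 40 in EFNB2, 13 in SEMA4F and 27 in PLXNA2. CpG number thus overlapped between starts with both marks and starts with H3K4me3 alone, and EFNB2, without H3K27ac, had the most of the 9. SEMA5A, with neither mark, held 33.

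Over the span and its 1 kb flanks, all 49 genes had H3K4me3, against 75.5% of all protein-coding genes. H3K27ac was also called at 43 of them (87.8%), against 73.4% of all protein-coding genes with any H3K27ac and 68.2% with both marks. The 6 genes with H3K4me3 alone were EPHA7, EPHA8 and EPHA10, EFNB2, which encodes the ephrin-B ligand of EPHB4, and the membrane-bound semaphorins SEMA4F and SEMA6C. H3K4me3 alone was found in 7.33% of all protein-coding genes, H3K27ac alone in 5.17% and neither mark in 19.3%. None of the 49 genes fell in the last 2 classes.

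A longer gene offers more room for a peak, so gene length was set beside these counts. The 49 genes had a median length of 51.5 kb, against 24.2 kb over all protein-coding genes, and ranged from 5.81 kb for EFNA4 to 947 kb for EPHA6. Of the 22 genes of 100 kb or longer, 21 had both marks (95.5%), against 87.8% of all protein-coding genes of that length. Of the 27 shorter genes, 22 had both (81.5%), against 64.3%. The part of length in the difference from all genes was not otherwise tested.

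At the starts the share with both marks lay nearer to that of all genes. Of the 43 genes with a start in RefSeq's promoter table, 27 (62.8%) had both marks within 1 kb of a listed start, against 60.0% of protein-coding genes with a listed start. H3K4me3 without H3K27ac was found at the starts of 14 of the 43 (32.6%), against 12.1%, and neither mark at 2 (4.65%), EPHB6 and SEMA5A, against 26.0%. H3K27ac without H3K4me3 was found at 0 of the 43, against 1.88%. H3K27ac of 100 or more stood at the starts of 22 genes (51.2%), against 53.8%, of 1000 or more at 12 (27.9%), against 23.2%, and of 3100 or more at 9 (20.9%), against 7.99%. The 9 were EPHB3, EFNA1, EFNA3, EFNA5, SEMA4B, SEMA4C, PLXNB1, PLXNB2 and NRP2. H3K4me3 of 3100 or more stood at 29 (67.4%), against 56.6%. Among genes with H3K27ac at the start, the median score was 601 in these families and 627 over all protein-coding genes. For EPHA10, EFNB3, SEMA3A, SEMA6A, SEMA6B and NRP1 the 2 ends of the gene were used instead, so that with all 49 genes 30 had both marks, 14 had H3K4me3 alone and 5 had neither. Which end is the start is not given here for these genes. SEMA6A counts among the 30 through its lower-coordinate end, and its higher-coordinate end had H3K4me3 alone.

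**Figure D1:**
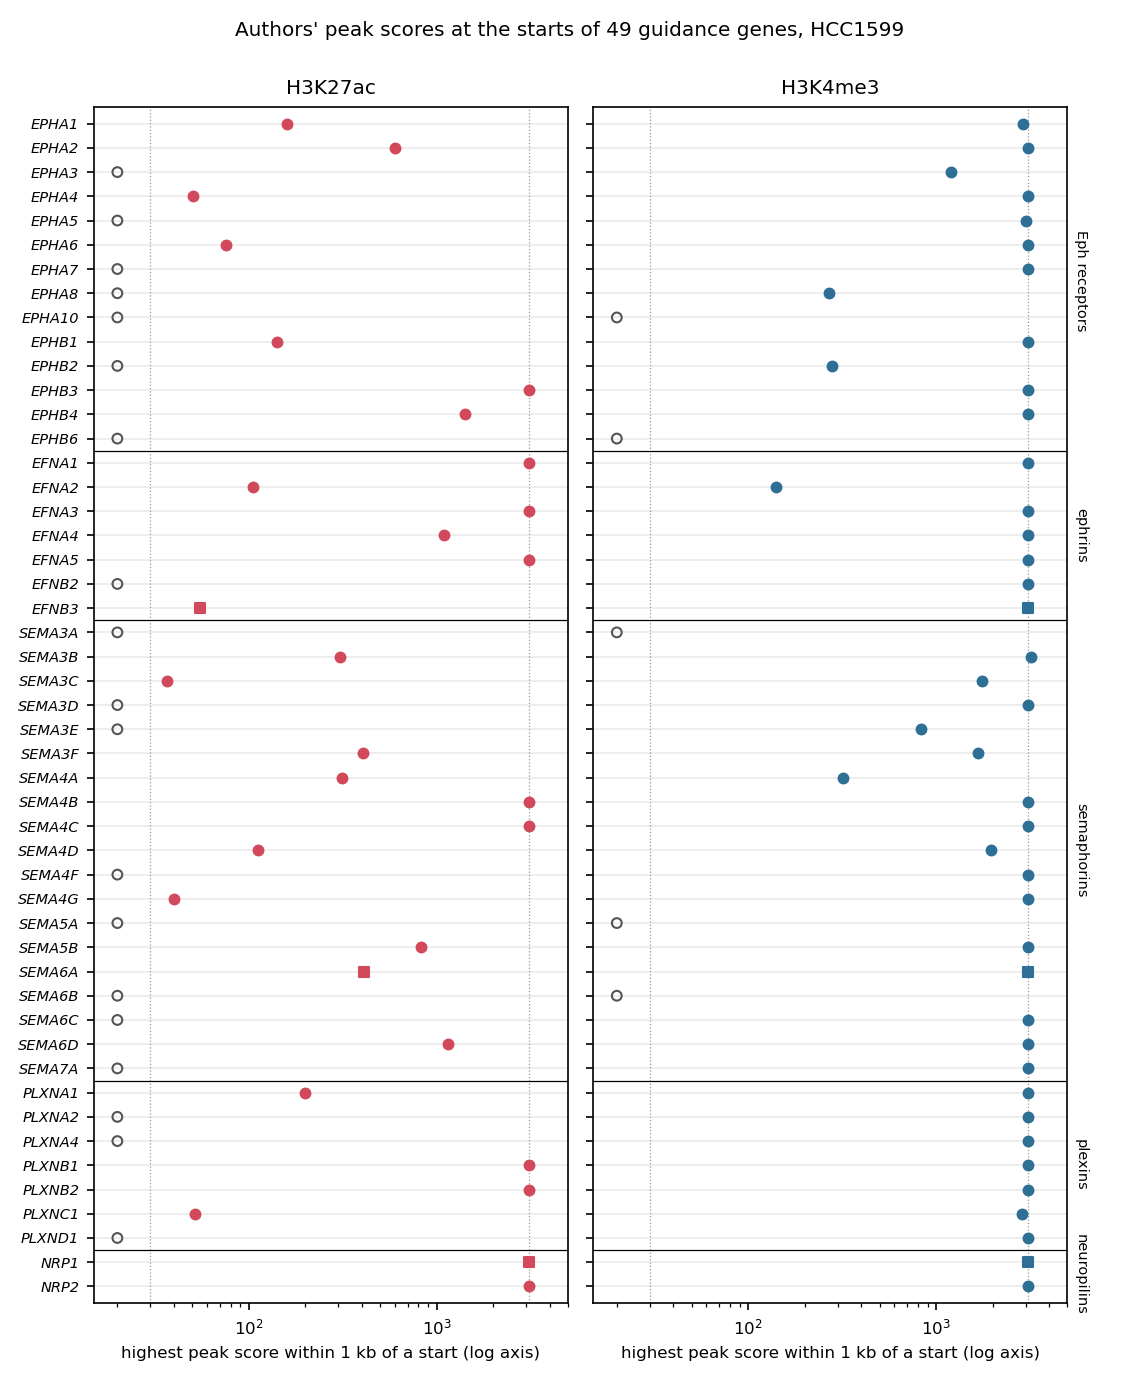
The highest H3K27ac score (left) and H3K4me3 score (right) within 1 kb of a start of each of the 49 genes, on log axes, with circles for listed starts, squares for gene ends and open circles for genes without a peak there; dotted lines mark the scores 30 and 3100. H3K4me3 scores reach 3100 in 32 genes, while H3K27ac scores spread over the whole range and are missing in 19 genes.

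Among the 9 EphA receptors, which mainly bind ephrin-A, 4 had both marks at the start and 0 had an H3K27ac score of 1000 or more there. EPHA2, a receptor of epithelial cells studied in many carcinomas, led the branch with an H3K27ac score of 601 and an H3K4me3 score of 3100. A second pair of peaks lay 10267 bp into the gene by the H3K27ac midpoint, with scores of 435 for H3K27ac and 291 for H3K4me3. EPHA1 had 160 and 2911 at its start.

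EPHA4 and EPHA6 had strong H3K4me3 and weak H3K27ac at the start. EPHA4 scored 50.6 for H3K27ac and 3100 for H3K4me3, and its strongest H3K27ac peak, 284, lay 106509 bp into the gene. EPHA6, the longest of the 49 genes, scored 75.6 and 3100 at its start and held 10 H3K27ac peaks along its 947 kb, which covered 0.654% of the window.

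The other EphA receptors had no H3K27ac at the start. EPHA7 carried 1 H3K4me3 peak of 4553 bp with a score of 3100 over its start and no H3K27ac peak anywhere in its 180 kb. EPHA5 scored 3020 for H3K4me3 at the start, and its 3 H3K27ac peaks, all inside the gene, did not pass 41.8. EPHA3 scored 1201 for H3K4me3 at the start and 1312 at a second peak 6913 bp into the gene, with H3K27ac peaks of at most 46.5 elsewhere. EPHA7 and EPHA2 thus both reached the score of 3100 for H3K4me3, at which scores pile up, and H3K27ac was called at the start of EPHA2 and not of EPHA7.

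EPHA8 and EPHA10 had lower H3K4me3 scores and no H3K27ac. EPHA8 had 2 H3K4me3 peaks of 228 and 268 on either side of its start and no H3K27ac peak. EPHA10 had 1 H3K4me3 peak of 1007 inside the gene, none at either end, and no H3K27ac peak.

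The EphB branch, which mainly binds ephrin-B, held the strongest starts of the receptors. EPHB3, a receptor of epithelial tissues and a target of Wnt signalling in the intestine, had 3100 for both marks, in an H3K27ac peak of 8761 bp and an H3K4me3 peak of 9708 bp. In all, 1.11% of protein-coding genes with a listed start had an H3K4me3 peak of 9000 bp or more there. A second H3K27ac peak of 3100 and 7912 bp lay 15642 bp into EPHB3, so that H3K27ac covered 81.7% of its window.

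EPHB4, the receptor of ephrin-B2 known from vessels and breast epithelium, scored 1423 for H3K27ac and 3100 for H3K4me3. These start peaks, of 3782 and 4829 bp, also lay over the start of SLC12A9, a neighbouring transporter-family gene, and the lists do not say to which of the genes they belong. A further H3K27ac peak of 1022 stood at the far end of EPHB4.

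EPHB1, EPHB2 and EPHB6 were unlike each other. EPHB1 scored 141 for H3K27ac and 3100 for H3K4me3 at its start, and its strongest H3K27ac peak, 3100 over 4455 bp, lay 272290 bp into the gene together with an H3K4me3 peak of 1676. EPHB2 had H3K4me3 peaks of 177 and 278 around its start and none of its 5 H3K27ac peaks there, the highest of them, 202, being 115865 bp into the gene. At EPHB6, which encodes a receptor without kinase activity, the listed start, 7680 bp into the gene, had neither mark, while the 5′ end of the gene had H3K4me3 of 3100 and an H3K27ac peak of 81.0.

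Ephrins, the ligands of these receptors, had H3K27ac on a median of 15.2% of the window, against 4.87% over all protein-coding genes. The medians of the other families were 2.25% for Eph receptors, 3.0% for semaphorins, 9.85% for plexins and 20.7% for the 2 neuropilins. Ephrin genes were also the shortest, with a median of 8.70 kb. The 5 ephrin-A genes all had both marks within 1 kb of a listed start, and 4 of them had an H3K27ac score of 1000 or more. At EFNA2 the H3K27ac peak lay 817 bp from the listed start, and within 500 bp this gene did not have both marks.

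EFNA1, EFNA3 and EFNA4 lie side by side on chromosome 1 and had wide domains of both marks. At EFNA1, a ligand of EPHA2, 1 H3K27ac peak of 19524 bp and 1 H3K4me3 peak of 18566 bp, both with a score of 3100, covered 100% of the gene and its flanks. By width these were number 39 of the H3K27ac list and number 13 of the H3K4me3 list. The same peaks also covered the starts of the neighbours DPM3, which encodes a subunit of dolichol-phosphate mannose synthase, and SLC50A1, which encodes a sugar transporter.

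EFNA3 had 3100 for both marks, in peaks of 9390 bp for H3K27ac and 9497 bp for H3K4me3 that covered 87.7% and 88.7% of its window. EFNA4 had an H3K27ac peak of 1091 over 8295 bp and an H3K4me3 peak of 3100 over 5368 bp. The EFNA4 peaks reached into ADAM15, a gene of a membrane protease, and covered the start of the EFNA4-EFNA3 readthrough gene, and no peak was shared between EFNA4, EFNA3 and EFNA1.

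EFNA5, which like other ephrin-A proteins is a lipid-anchored ligand, had more peaks than any other of the 49 genes, with 29 of H3K27ac and 10 of H3K4me3 in 294 kb. At its start both marks scored 3100, in peaks of 5973 bp for H3K27ac and 12185 bp for H3K4me3. Inside the gene, H3K27ac peaks of 1740 and 1154 lay 93659 and 100039 bp from the 5′ end, both on H3K4me3 peaks. Of the 29 H3K27ac peaks, 10 lay on H3K4me3 and 19 did not.

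The remaining ephrins had low H3K27ac scores or none. EFNA2 had an H3K27ac peak of 106 and an H3K4me3 peak of 141 that did not overlap each other. At EFNB2, H3K4me3 scored 3100 in a peak of 4297 bp over the start and no H3K27ac peak was called in the gene. EFNB3 had H3K27ac of 55.0 and H3K4me3 of 3100 at the same end. The H3K4me3 peak of EFNB3 was 2004 bp wide, so both ephrin-B genes had narrower H3K4me3 peaks than EFNA1 under the same score of 3100, at which scores pile up. Narrow peaks were not particular to ephrin-B, since the H3K4me3 peak of EFNA2 spanned 896 bp and that of EFNA4 5368 bp.

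**Figure D2:**
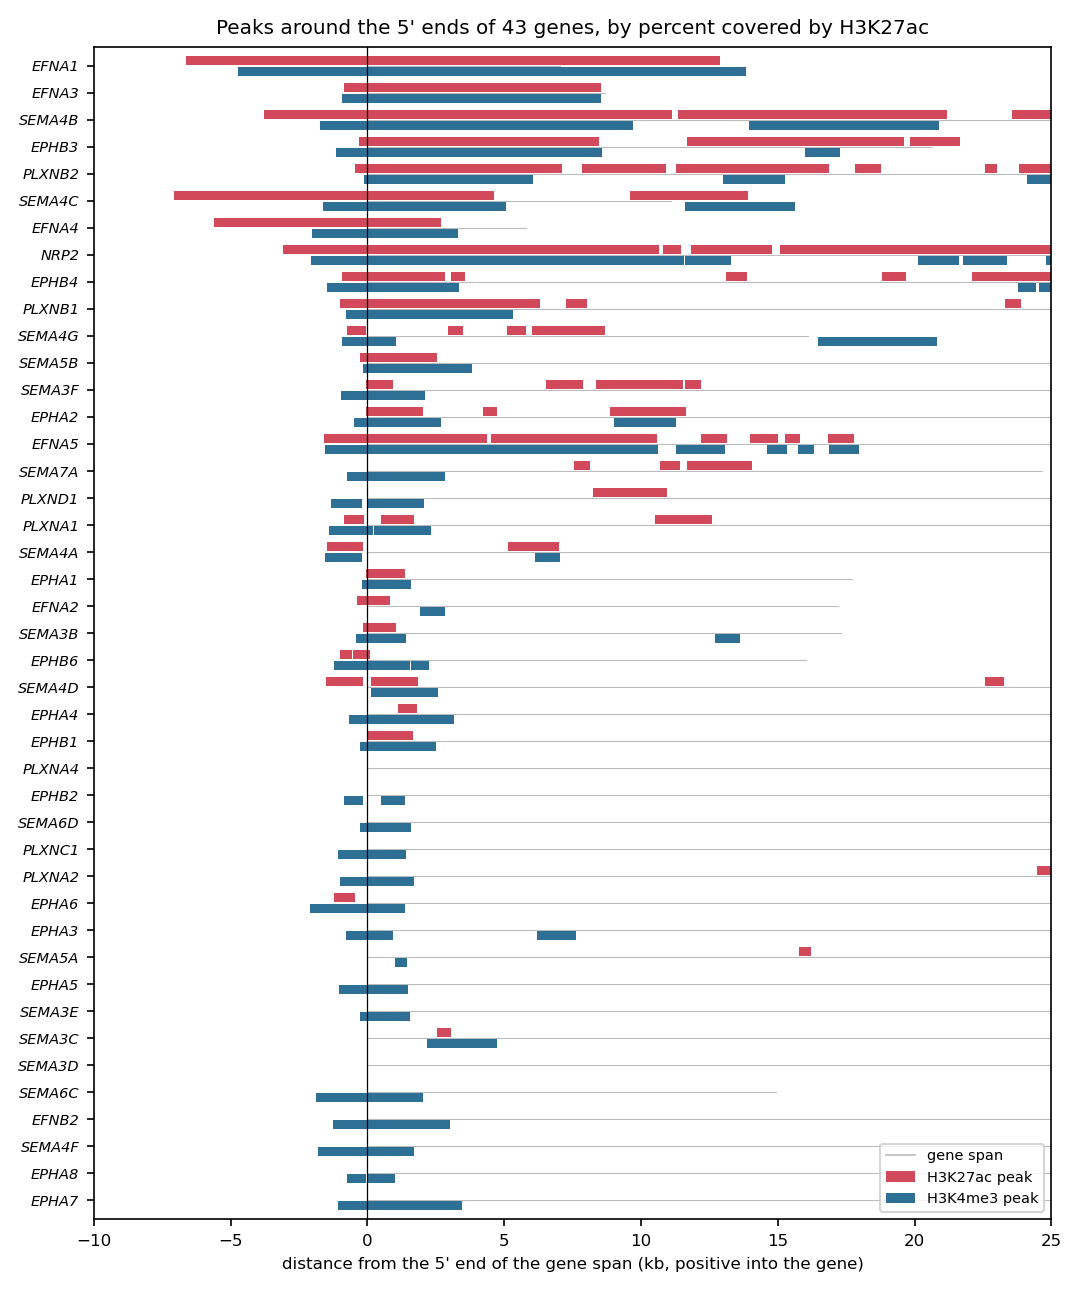
Peaks of H3K27ac (upper bars) and H3K4me3 (lower bars) from 10 kb before to 25 kb after the 5′ end of the span of the 43 genes with a listed start, ordered from the gene most covered by H3K27ac (EFNA1, 100%) at the top; grey lines show the gene and bars stop at the edge of the plot. Only peaks that overlap the gene or its 1 kb flanks are drawn. Blank space beyond the flanks does not mean that no peak was called there. Wide peaks of both marks fill the upper rows, and H3K4me3 stands alone in the 5 lowest rows.

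Semaphorins ranged from 0% to 84.8% of the window under H3K27ac, and the medians of class 3 and class 4 differed while their ranges overlapped. The 6 secreted class 3 genes had H3K27ac on a median of 0.377% of the window and 0.909 H3K27ac peaks per 100 kb, while the 6 class 4 genes had 16.9% and 7.17 peaks per 100 kb. The ranges were 0.15% to 16.8% for class 3 and 0% to 84.8% for class 4. The class 3 genes were longer, with a median of 217 kb, against 37.6 kb for class 4. Of class 3, 3 genes had both marks at the start and 0 had an H3K27ac score of 1000 or more there. Of class 4, 5 had both and 2 reached 1000.

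SEMA3B and SEMA3F, neighbours on chromosome 3 in a region often lost in lung cancers, had the highest H3K27ac scores of class 3 at the start, while SEMA3D and SEMA3C scored higher for H3K4me3 than SEMA3F. SEMA3B had H3K27ac of 304 and H3K4me3 of 3189 at its start. SEMA3F had 406 and 1667, with peaks that also covered the start of LOC124909484, and a stronger H3K27ac peak of 604 inside the gene, without H3K4me3. The 4 others, SEMA3A, SEMA3C, SEMA3D and SEMA3E, lie on chromosome 7 and had little or no H3K27ac.

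SEMA3C, a ligand of NRP1 and NRP2, scored 36.7 for H3K27ac and 1751 for H3K4me3 at its start. SEMA3D scored 3100 for H3K4me3 at a listed start 63187 bp into the gene, and SEMA3E, the ligand of PLXND1, scored 832, both without H3K27ac there. SEMA3A, a repulsive cue for axons, had no peak within 1 kb of either end of its 537 kb, and its strongest peaks inside were 97.1 for H3K27ac and 410 for H3K4me3. In 3 of these 4 genes the highest H3K27ac score anywhere stayed at or below 60.0.

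SEMA4B and SEMA4C were the most strongly marked semaphorins. At SEMA4B both marks scored 3100, in peaks of 14899 bp for H3K27ac and 11475 bp for H3K4me3. With 8 H3K27ac peaks, SEMA4B was covered over 84.8% of its window, and a second H3K4me3 peak of 3100 stood 17415 bp from the 5′ end. SEMA4C, a ligand of PLXNB2, also scored 3100 for both marks, in peaks of 11700 and 6690 bp that covered the start of LOC124908044 as well.

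The other class 4 genes were lower in H3K27ac. SEMA4A had 315 and 321 and SEMA4D, the ligand of PLXNB1, had 112 and 1964 for H3K27ac and H3K4me3. SEMA4G had 40.2 and 3100 at its start and a stronger H3K27ac peak of 370 inside the gene. SEMA4F had H3K4me3 of 3100 and no H3K27ac peak in the gene.

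SEMA5A and SEMA5B, transmembrane semaphorins with thrombospondin repeats, were opposites. SEMA5A had neither mark within 1 kb of its start, and in its 511 kb no peak passed 38.6 for H3K27ac or 35.4 for H3K4me3. An H3K4me3 peak of 32.5 lay 1003 bp from the start, just outside that distance. SEMA5B had 824 and 3100 at its start and a run of H3K27ac peaks farther into the gene. The 2 strongest of these, of 5806 and 3049 bp with a score of 3100 each, lay 59060 and 63611 bp from the 5′ end, and the narrower one lay on no H3K4me3 peak. Among the 134 H3K27ac peaks of these genes that lay off H3K4me3, it alone reached 1000.

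In class 6, SEMA6D had 2882 for H3K4me3 at its 5′ end without H3K27ac. An inner start of SEMA6D, reached by an H3K27ac peak 533667 bp into the gene, had 1153 for H3K27ac and 3100 for H3K4me3. SEMA6A had H3K27ac of 411 with H3K4me3 of 87.2 at one end and H3K4me3 of 3100 without H3K27ac at the other. SEMA6B had no peak at its ends, with 30.3 for H3K27ac and 216 for H3K4me3 inside the gene. SEMA6C had H3K4me3 of 3100 in a peak of 3921 bp over its start and no H3K27ac.

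SEMA7A, the lipid-anchored ligand of PLXNC1, had H3K4me3 of 3100 at its start and 3 H3K27ac peaks of at most 86.2, all inside the gene. SEMA6C and SEMA7A thus stood with EFNB2 and SEMA4F in having full H3K4me3 scores at a start without H3K27ac.

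**Figure D3:**
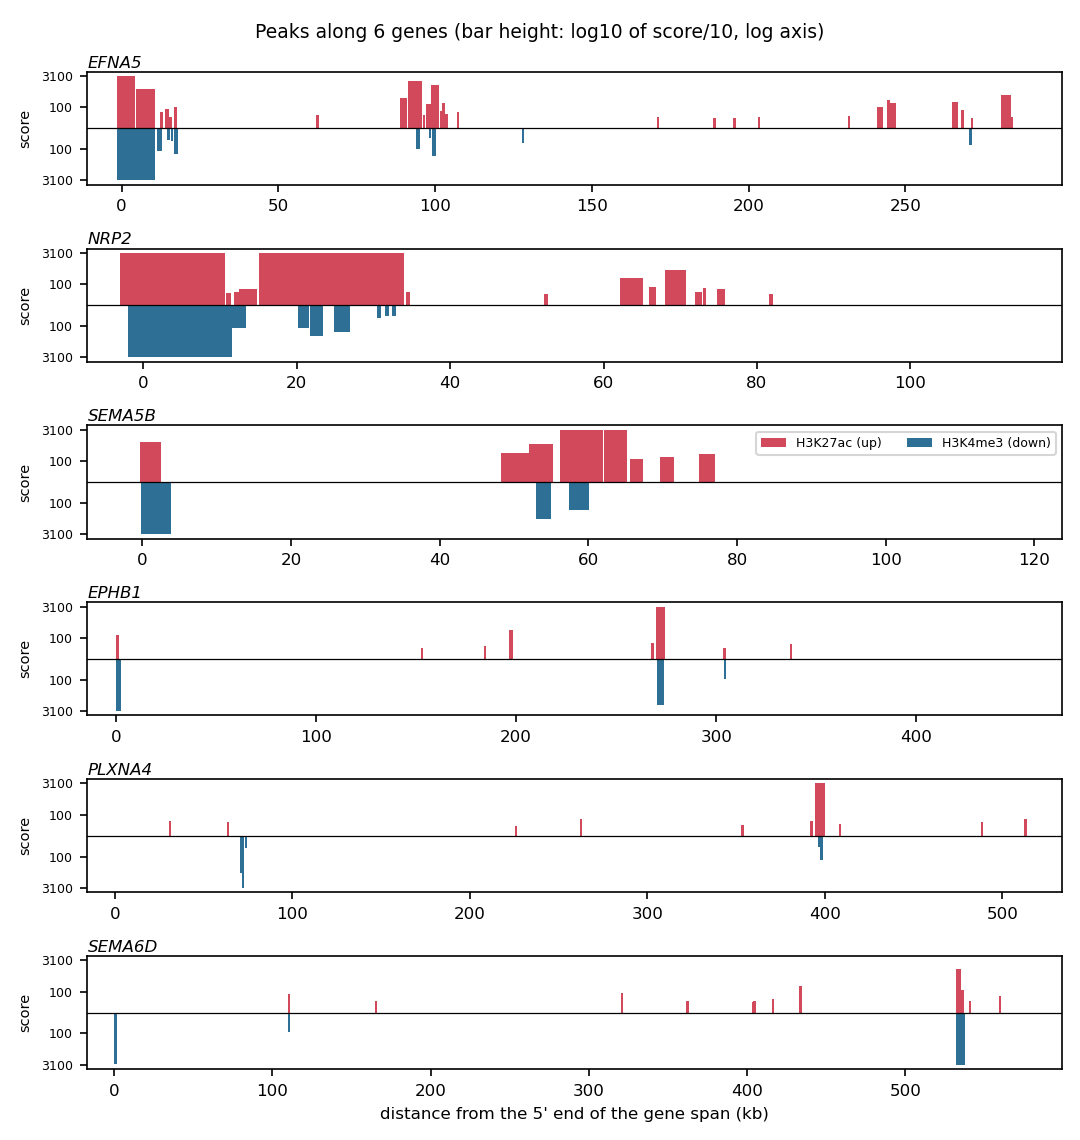
Peaks of H3K27ac (up) and H3K4me3 (down) along 6 genes by distance from the 5′ end of the span in kb, with bar height on a log axis of score that begins at 10, and with narrow peaks drawn wider than they are so that they can be seen. In EPHB1, PLXNA4 and SEMA6D the highest H3K27ac bar stands far inside the gene, and in EFNA5, NRP2 and SEMA5B such bars come in runs.

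Plexins, the receptors of semaphorins, all had both marks in the gene, and 6 of the 7 had H3K4me3 of 3100 at the start. PLXNB1 and PLXNB2, receptors of class 4 semaphorins, had 3100 for both marks. The start peaks of PLXNB1 spanned 7285 bp for H3K27ac and 6100 bp for H3K4me3, and those of PLXNB2 spanned 7573 and 6175 bp. PLXNB2 also held H3K27ac peaks of 2397 and 2477 inside the gene, both on H3K4me3 of 643 and 630, and H3K27ac covered 65.5% of its window and 31.7% of that of PLXNB1.

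The plexin-A genes, which signal for class 3 semaphorins together with neuropilins, had full H3K4me3 scores and little H3K27ac at the start. PLXNA1 had H3K27ac of 200 there, and PLXNA2 and PLXNA4 had none. In PLXNA2 the H3K27ac peaks, all inside the gene, did not pass 88.9. In PLXNA4 an H3K27ac peak of 3120 over 5648 bp lay 397198 bp from the 5′ end, on H3K4me3 of 139. The H3K4me3 peak of 3100 of PLXNA4, at a listed start, lay 72303 bp from the 5′ end.

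PLXNC1 and PLXND1 were weak in H3K27ac as well. PLXNC1 had H3K4me3 of 2854 at its 5′ end without H3K27ac, and H3K27ac of 51.6 at an inner start 114042 bp into the gene. PLXND1, an endothelial receptor of SEMA3E, had H3K4me3 peaks of 3100 and 501 on the 2 sides of its start, no H3K27ac there and at most 167 inside the gene.

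The neuropilins, co-receptors of class 3 semaphorins and of vascular growth factors, had 3100 for both marks. NRP1 showed this at the higher-coordinate end, with peaks of 4466 bp for H3K27ac and 7588 bp for H3K4me3, and an inner pair of peaks of 797 and 303. NRP2 had start peaks of 13754 and 13637 bp, and a further H3K27ac peak of 18925 bp and 3100 centred 24541 bp into the gene. Its 14 H3K27ac and 8 H3K4me3 peaks covered 38.4% and 18.1% of its window. By width its larger H3K27ac peak was number 46 of that list.

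Set side by side, ligands and their known receptors did not carry like marks in each case. EFNA1 and EPHA2 had H3K27ac of 3100 and 601 at their starts, while EFNB2 had none and EPHB4 had 1423. SEMA4C and PLXNB2 had 3100 each, while SEMA4D had 112 and PLXNB1 3100. SEMA3E and PLXND1 both had none, as did SEMA7A, whose receptor PLXNC1 had 51.6. H3K4me3 was called at the start in all 12 of these genes, and in 41 of the 43 genes with a listed start. Of all protein-coding genes with a listed start, 60.0% had both marks there and 12.1% had H3K4me3 alone. The start peaks of EFNA1, EPHB4 and SEMA4C also lay at starts of other genes.

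**Figure D4:**
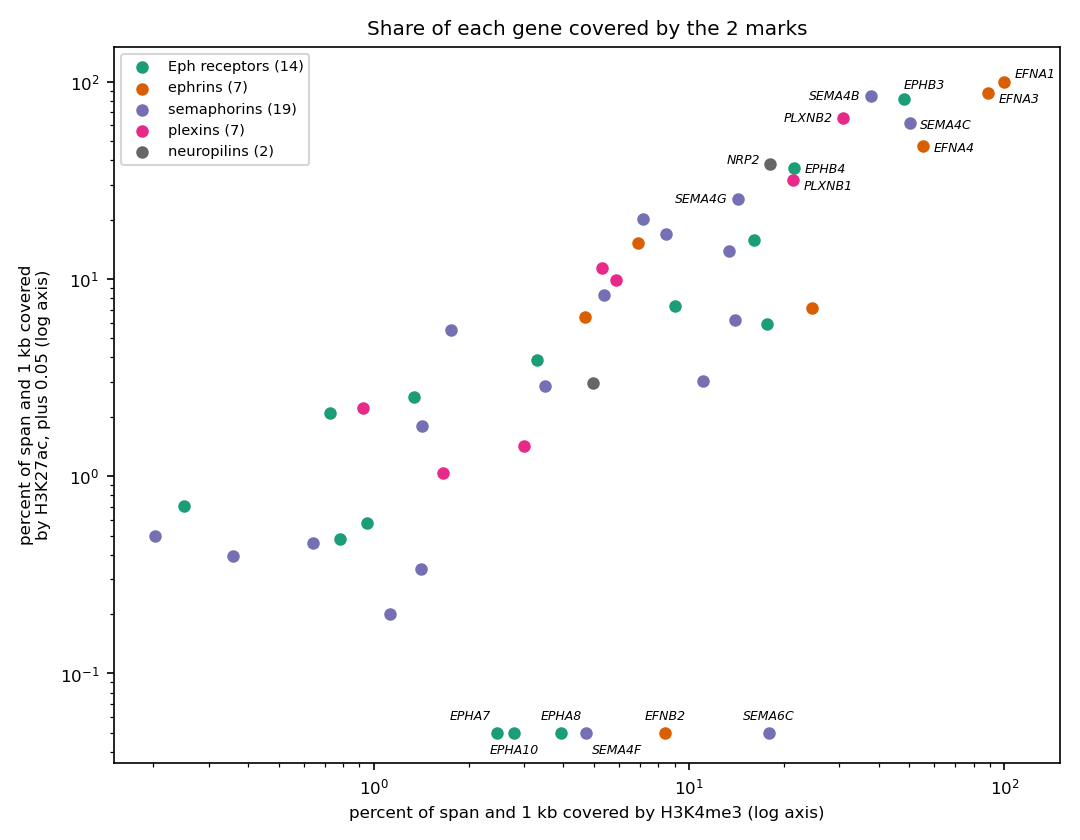
The percent of each gene and its 1 kb flanks covered by H3K27ac, with 0.05 added so that 0 can be shown, against the percent covered by H3K4me3, on log axes and by family. The 11 genes with 25% or more under H3K27ac are named at the upper right, and the 6 without H3K27ac, along the bottom, have H3K4me3 on 2.46% to 17.9%.

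H3K27ac covered at least 25% of the window in 11 of the 49 genes, against 15.8% of all protein-coding genes, and these were EPHB3, EPHB4, EFNA1, EFNA3, EFNA4, SEMA4B, SEMA4C, SEMA4G, PLXNB1, PLXNB2 and NRP2. All 11 had H3K4me3 on at least 14.3%. Altogether 201 different H3K27ac peaks and 104 H3K4me3 peaks were counted. This is 2.6 and 1.35 per 100 kb, against 3.9 and 2.06 over all protein-coding genes. The 22 genes of 100 kb or longer had 1.96 and 0.892 per 100 kb, against 2.57 and 1.03 for all protein-coding genes of that length. The 27 shorter genes had 8.36 and 5.4, against 6.35 and 3.98. Per 100 kb, H3K27ac peaks numbered 8.52 in ephrins, 5.78 in neuropilins, 3.32 in plexins, 2.13 in semaphorins and 1.72 in Eph receptors. Single genes weighed heavily in the ephrin and neuropilin values, since EFNA5 held 29 of the 34 ephrin peaks and NRP2 held 14 of the 16 neuropilin peaks, and the other ephrins had 1 or 0 each.

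Of the 201 H3K27ac peaks, 67 lay on an H3K4me3 peak (33.3%; exact Clopper-Pearson 95% interval 26.9% to 40.3%), against 34.8% of the whole H3K27ac list. The interval covers counting error only and treats neighbouring peaks as independent. The 67 had a median score of 406 and a median width of 2116 bp, and the 134 others had 45.7 and 694.5 bp. The share was 43.8% in neuropilins, 41.2% in ephrins, 36.0% in Eph receptors, 30.8% in semaphorins and 22.2% in plexins. In the list as a whole, the median score off H3K4me3 was 46.5. The share on H3K4me3 depended on weak peaks, and was 50.6% with scores of at least 100 and 56.6% with lists of equal length.

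A full H3K4me3 score without H3K27ac was more frequent at the starts of these genes than over all genes. At listed starts, H3K4me3 of 3100 or more with no H3K27ac within 1 kb was found in 9 of 43 genes (20.9%), against 3.45% of protein-coding genes with a listed start. The 9 were EPHA7, EFNB2, SEMA3D, SEMA4F, SEMA6C, SEMA7A, PLXNA2, PLXNA4 and PLXND1. Among genes with H3K4me3 of 3100 or more at a listed start, H3K27ac was missing in 9 of 29, against 6.1% of all such genes. The class was noticed in these data and then counted, so the difference is a description, and with H3K27ac peaks under 100 left out the counts were 12 genes and 7.65%, EPHA4, EPHA6 and SEMA4G being added.

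Base composition was set beside the marks at the starts. Over the 300 bases from 250 before to 50 after each of the 70 listed starts of 43 genes, the ratio of observed to expected CpG had a median of 0.793 at 34 starts with both marks and 0.715 at 24 with H3K4me3 alone. At the 11 starts with neither mark it was 0.288. The same medians over all protein-coding genes were 0.847, 0.772 and 0.266. The median GC content of these genes was 71.3% at starts with both marks and 64.2% with H3K4me3 alone, against 66.0% and 66.3% over all protein-coding genes, and the median CpG number was 30.5 and 23.5, against 27 and 25. At the 13 starts with H3K4me3 of 3100 or more and no H3K27ac the median was 0.812, and at the 16 with both marks and H3K27ac of 1000 or more it was 0.801.

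**Figure D5:**
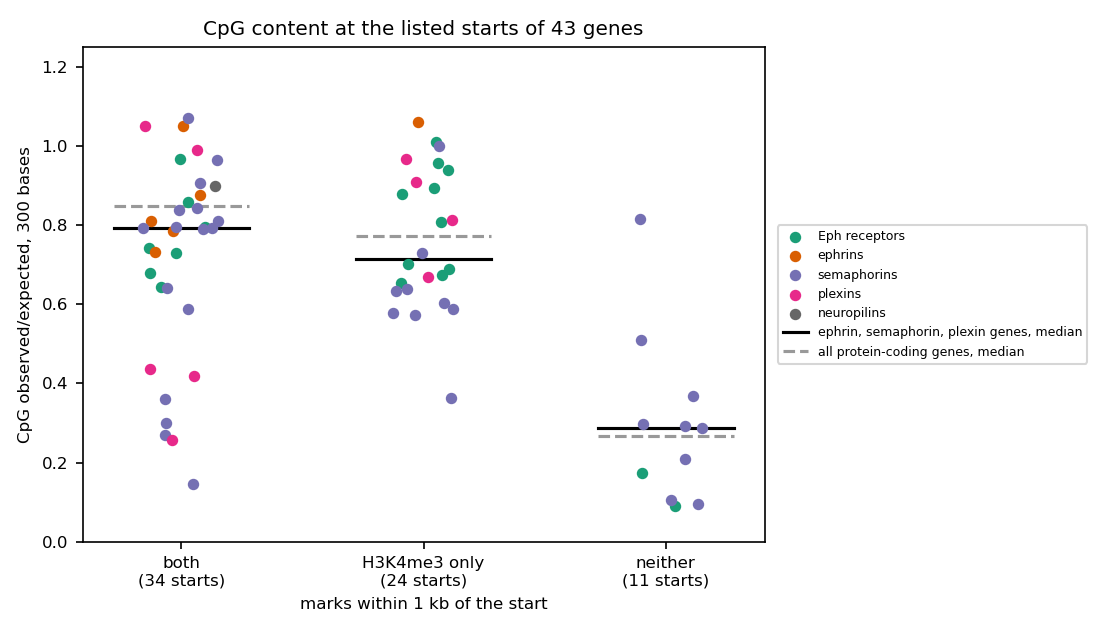
The ratio of observed to expected CpG in 300 bases at the listed starts of 43 genes, by the marks within 1 kb, with points coloured by family, solid lines for their medians and dashed lines for the medians of all protein-coding genes; 1 start of SEMA4G with H3K27ac alone is not drawn. Points with both marks and with H3K4me3 alone overlap over most of their range, and of the 11 starts with neither mark only that of SEMA5A lies above 0.6.

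A GC box, spelled GGGCGG and searched on both strands, was found at 51 of the 70 starts (72.9%), against 56.3% of all protein-coding starts in windows of the same length. It contains a CpG and so moves with CpG content. Of the starts with both marks 88.2% held it, against 71.9% of all protein-coding starts with both, and of those with H3K4me3 alone 70.8% held it, against 66.9%. On both strands, TATAAA, the core of a TATA box, was found at 3 of the 70 (4.29%), against 9.46%. TGANTCA, the letters of an AP-1 site, was found at 1 (1.43%), against 6.15%, and TGGGAA, those of an RBPJ site, at 22.9%, against 22.7%. Among starts with both marks, TATAAA was found at 0.0%, against 5.17%, and TGANTCA at 2.94%, against 3.94%. The median GC content was 67.5% at the 70 starts, against 62.3% over all protein-coding starts, and its part in these shares was not tested. A match is not a shown binding site. TATAAA matches belonged to the starts of EFNB2, EPHA7 and SEMA3E, and the TGANTCA match to the inner start of PLXNC1.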

How the data were processed

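H3K27ac and H3K4me3 were each measured in 1 library of HCC1599 cells, and the input library was not analysed here. The authors deposited 1 peak list per mark with a score per peak whose unit is not stated. The submitters' processing notes name the build hg38, MACS 1.4 and Bowtie2 (version not given in the sources used here). Per the labels' protocols, sonication and micrococcal nuclease cut the cross-linked chromatin, so peak edges depend on the digestion.

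BED starts were shifted to count from 1, and peaks off chromosomes 1 to 22 and X were left out. Gene spans came from RefSeq's table for GRCh38.p14, and starts and sequences from RefSeq's promoter table, which listed 43 of the 49 genes. A gene could have several listed starts, and the strongest peak within 1 kb of any of them was taken. For the other 6 genes the 2 ends of the span were used. Exons and introns were not annotated. Overlaps were counted in Python 3.11.15 with numpy 2.4.6 and pandas 2.3.3, intervals with scipy 1.17.1 and figures with matplotlib 3.10.9. A recount with bedtools 2.31.1 differed in 0 of 19974 genes for each mark. Simulated data were used to test the counting for missed peaks only, not for extra ones.

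The genes and lists were chosen with earlier results of these data known. All 49 genes were named, other pathway genes only where they had 1 mark or none or stood among the 3 highest H3K27ac scores, and neighbours only where they shared a peak. Some pathway genes under this rule are not reported here. LOC names are identifiers as RefSeq gives them. Alternatives were a score of at least 100, lists of equal length, other windows and distances, 50% overlap and merging of peaks under 500 bp apart. The class with H3K4me3 of 3100 or more and no H3K27ac, the grouping of starts by GC content and the removal of peaks at starts of other genes were added after seeing the data.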

Additional observations from a re-analysis of the deposited data

How the results depend on the processing

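Of 97 values computed, counting each setting, 84 stayed within 1.5 times the reported count or median, or within the interval of a share, and 13 moved. With scores of at least 100 only, 30 genes had both marks, among them 10 semaphorins, 18 had H3K4me3 alone and 1, SEMA5A, had neither; 77 H3K27ac peaks remained, their median cover was 1.72% and 50.6% lay on H3K4me3. With the H3K27ac list at the length of the H3K4me3 list, 16 genes had H3K4me3 alone, 83 H3K27ac peaks remained, their median cover was 2.92% and 56.6% lay on H3K4me3. With 50% overlap, 1 gene, EFNA1, had neither mark, since its peaks reach far beyond it; the median H3K27ac cover was 3.0% and 23.6% of peaks lay on H3K4me3. Without peaks at starts of other genes, both marks were left in 39 genes, and at the start in 25, with EFNA1, EFNA4, EPHB4, SEMA3F and SEMA4C lost. For these counts of genes by mark, the share over all protein-coding genes was not computed at the changed settings. Whether the difference from all genes holds there was not tested. Genes with strong H3K4me3 and no H3K27ac at a listed start numbered 9 of 43 within 500 bp, against 3.72% of protein-coding genes with a listed start. Within 2.5 kb they numbered 9, against 3.28%, and at the 5′ end only 8, for which no share over all genes was computed. At the 5′ end only, SEMA3D and PLXNA4 dropped out, since their listed starts lie inside the gene, and EPHA4 entered. No paired analysis was possible because each mark had 1 library. Weak sites are limited by read depth, which is unknown here.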

Other observations

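Of 39 genes that act with or below these receptors, 34 (87.2%) had both marks over the gene or its flanks, against 68.2% of all protein-coding genes. Many of the 39 are long, and 87.8% of all protein-coding genes of 100 kb or longer had both marks. At the start 25 of the 39 (64.1%) had both, against 60.0% of protein-coding genes with a listed start. For the few of the 39 without a listed start, the 2 ends of the gene were used. DPYSL4, DPYSL5 and KDR had H3K4me3 alone, and CRMP1 had neither. DPYSL4, DPYSL5 and CRMP1 belong to the collapsin response mediator family, which acts on the cytoskeleton below semaphorins. By role, both marks were found in 6 of 6 adaptors and kinases, 5 of 6 co-receptors and protease genes and 4 of 7 cytoskeletal effectors. FES, a kinase that acts below plexins, had the highest H3K27ac score, 3227, and FARP1, RASA1 and NCK1 were among those that tied at 3100.

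At the starts richest in GC the H3K4me3 peak often stopped short of the start itself. Of 9 listed starts of these genes with 80% GC or more, 8 had H3K4me3 within 1 kb, but only 3 of the 8 (37.5%) lay inside the peak, against 81.1% of such starts over all protein-coding genes. Between 70% and 80% GC the shares were 100% of 22 starts and 96.9%. PLXND1, with 87.3% GC, and EPHA8, with 82.7%, each lay in a gap between 2 H3K4me3 peaks, 31 and 32 bp from the nearer one, and EPHB2, with 83.0%, lay 168 bp from one. EFNA2, with 85.3% GC, lay 282 bp from its peak, and SEMA5A, with 81.0%, had none within 1 kb. What such gaps come from was not tested, and the 9 starts are few and include a pair of EPHB2 starts 1 bp apart and a pair from SEMA3F.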
